A study of Mus musculus with 661 samples.

Results

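Aging changes the connective tissue cells of bone marrow, which build bone and feed blood stem cells. The comparison described here concerned the osteoprogenitors sorted as mOPr, for multipotent osteoprogenitor, from the bones of old and young C57BL/6 wild-type mice. It took all libraries named Old_mOPr, 26 cells, and all libraries named Young_mOPr, 26 cells, which made 52 of the 661 single cells of the series. Each cell was sorted into its own well and sequenced as its own library, and the deposited table gives a read count per gene and cell. The question was how much of the difference between the ages came from a different mix of cell clusters and how much was present among cells outside the clusters numbered 1 and 2. Those numbers are the deposited clusters of all stromal cells that are not endothelial, made by ICGS, a method that picks guide genes and groups cells by them. Clusters 1 and 2 hold most of the cells sorted as MSC-L, the stromal cells that carry the leptin receptor.

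Bone marrow stroma holds several related lineages. Leptin receptor cells lie around the sinusoids, make the chemokine Cxcl12 and the stem cell factor Kitl on which blood stem cells depend, and lean toward fat. Osteoprogenitors lie near the bone surface and give rise to osteoblasts, which lay down collagen and mineral. Chondrocytes make the aggrecan and type II collagen of cartilage, synovial lining cells lubricate joints, and fibroblasts make the loose matrix of tendon sheaths, periosteum and marrow. A sorted gate is set by a few surface proteins, so it can hold cells of more than one of these lineages.

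The mOPr gate took cells without the blood markers Ter119 and CD45, without endothelial CD31, without Sca-1 and without the leptin receptor, that stained for CD51 and PDGFRα. Transcripts were compared with that gate, and a cell was said to carry a gene at a CPM of 10 or more, the CPM being its counts scaled by the total of nuclear genes. Pdgfra, the transcript of PDGFRα, was carried by 23 of 26 cells of each age. Itgav, which encodes CD51, was carried by 18 of 26 young and 16 of 26 old cells. Ly6a, for Sca-1, was carried by 2 of 26 cells of each age. Pecam1, for CD31, was carried by 3 of 26 young cells and by 0 old cells, with 57 counts over the young cells and 1 over the old. Ptprc, for CD45, had 1 count in each age. Lepr went against the gate at the level of RNA: 10 of 26 young and 17 of 26 old cells carried the transcript of the receptor the sort was meant to leave out. Protein was not measured in these files.

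The old cells had between 238298 and 842191 nuclear-gene counts, with a median of 444242, and the young cells between 329854 and 966204, with a median of 516984. Old cells had 2916 to 6969 genes with a count, median 4904, and young cells 4204 to 7905, median 5827. The largest mitochondrial share was 4.50% in an old cell and 2.69% in a young cell. Library numbers of mOPr fell into 2 separate ranges, called ranges 1 and 2, and what sets them apart is not in the labels. Range 1 holds 13 old and 15 young cells, and range 2 holds 13 old and 11 young cells, so each age was seen in both. The cells of each age came from several mice, but the labels name no mouse for a cell. Each age was therefore treated as 1 sample, and no test between the ages was made. Brackets after a value hold exact 95% intervals, Clopper-Pearson for shares and Poisson for summed counts. They cover counting error only, and reads from PCR without molecular identifiers are not independent molecules.

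The mix of clusters was compared before any gene. Old mOPr fell into 3 of the 16 clusters, with 4 cells in cluster 1, 10 in cluster 2 and 12 in cluster 5. Young mOPr were spread over 10 clusters. Clusters 1 and 2 held 14 of 26 old cells, or 53.8% (33.4 to 73.4), against 2 of 26 young cells, or 7.69% (0.946 to 25.1). Cluster 5 held 12 of 26 old cells, or 46.2% (26.6 to 66.6), and 7 of 26 young cells, or 26.9% (11.6 to 47.8). It was the one cluster outside 1 and 2 that held both ages. Clusters 6 to 16 held 16 of 26 young cells, or 61.5% (40.6 to 79.8), and 0 old cells, for which the exact interval reaches 13.2%. The remaining young cell was in cluster 4. Among the young cells, cluster 15 held 7 and cluster 12 held 4.

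The same shift of clusters was present in each library range. Clusters 1 and 2 held 8 of 13 old and 1 of 15 young cells in range 1, and 6 of 13 old and 1 of 11 young cells in range 2. Clusters 6 to 16 held 10 of 15 young cells in range 1 and 6 of 11 in range 2.

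**Figure D1:**
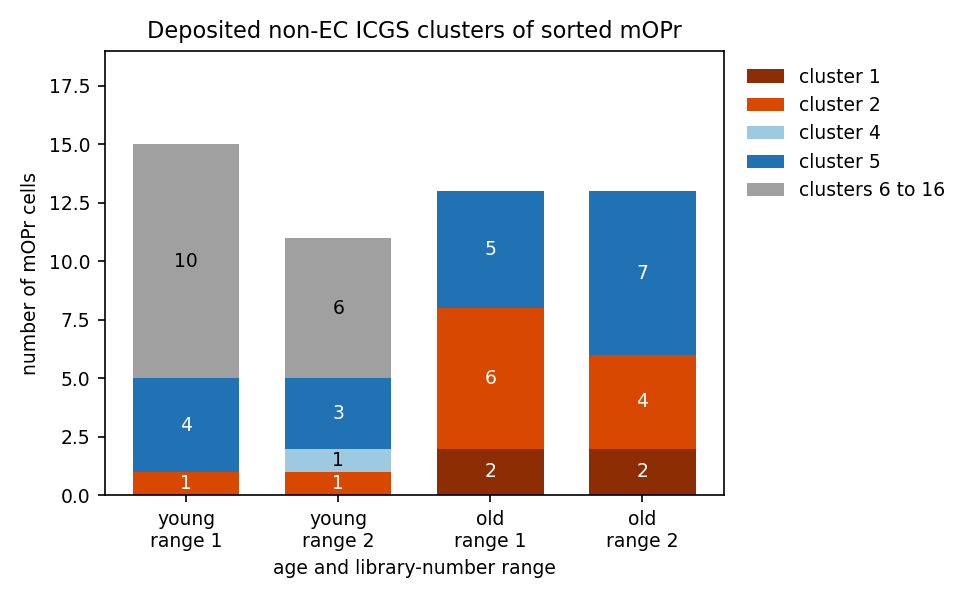
Number of mOPr cells (vertical axis) by age and library-number range (horizontal axis), with colors for the deposited cluster. Old cells lie in clusters 1, 2 and 5 in both ranges, while 16 of 26 young cells lie in clusters 6 to 16.

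Cells were also grouped by marker genes, among 4 lists only, for MSC-L, osteoblasts, chondrocytes and fibroblasts. The list that led in a cell was the one with the highest mean of log2 of CPM plus 1 over its genes. This need not be the list of which the cell carried the largest part: Young_mOPr 11, placed with fibroblasts, carried 8 fibroblast and 11 osteoblast genes. Most genes of the MSC-L, chondrocyte and fibroblast lists were guide genes, so this reading is not independent of the cluster numbers. A cell could carry a larger part of a list that did not take part: Old_mOPr 21, placed with MSC-L, carried 3 of 18 MSC-L genes and 7 of 10 pericyte and smooth muscle genes, and Young_mOPr 20, placed with fibroblasts, carried 7 of 8 synovial genes. The MSC-L list led in 14 of 26 old cells, 53.8%, and in 1 of 26 young cells, 3.85%. Fibroblast markers led in 7 of 26 old cells, 26.9%, and in 15 of 26 young cells, 57.7%. Chondrocyte markers led in 5 of 26 young cells, 19.2%, and in 0 old cells. Osteoblast markers led in 5 of 26 cells of each age, 19.2% (6.55 to 39.4). Of the 14 old cells in clusters 1 and 2, 13 were led by MSC-L markers. Of the 12 old cells in cluster 5, 7 were led by fibroblast, 4 by osteoblast and 1 by MSC-L markers. Cluster 5 thus held cells with different leading markers, and a comparison within it does not hold the cell type fixed.

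Cells of other kinds were looked for with further lists. Of 15 hematopoietic markers, an old cell carried at most 2 and a young cell at most 1, and the summed level was 103 CPM in old and 89.2 CPM in young cells, most of it Arhgdib at 76.2 and 86.2 CPM. Endothelial markers summed to 106 CPM in old cells, most of it Esam at 70.9 CPM, and to 125 CPM in young cells, most of it Erg at 96.9 CPM. A cell of either age carried at most 2 of them. Neutrophil markers summed to 0.721 CPM in old and 3.50 CPM in young cells, and erythroid markers to 6.09 and 1.23 CPM. No gene of the neutrophil or erythroid lists passed the count filter, and the few genes of the hematopoietic and endothelial lists that passed were not called. Schwann cell markers summed to 254 CPM in old and 49.5 CPM in young cells, and cell cycle genes to 100.2 and 72.7 CPM. Of the cell cycle genes, Mcm5, a part of the replication helicase, had a log2 ratio of old over young of −3.99 with 95.5% of its young counts in 1 cell, and Pcna, the sliding clamp of replication, had 0.81. In all mOPr neither was called, nor was S100b, the one Schwann cell gene that passed, at 1.93. Osteoclast markers summed to 161 CPM in old and 423 CPM in young cells, with the protease gene Ctsk on top at each age. Acp5, an acid phosphatase of osteoclasts that was also a guide gene, had 81.4 CPM in young cells and 0 counts in old cells, and was called lower. Its log2 ratio against a floor of 3 counts over the old group was −8.40 or lower. Bounds on a ratio use this floor, while other ratios over a group at 0 counts rest on 1 CPM added to each level.

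The comparison of all mOPr asked which genes differed between the sorted populations, whatever clusters their cells were in. Levels were counts summed over the cells of an age. A gene was called when its log2 ratio of old over young, with 1 CPM added to each, was at least 1 in size, both pooled and in each library range. Genes with under 100 counts over both ages, or with counts in under 5 cells, were not considered. Of 11237 genes that passed, 1206 were called higher in old cells, 10.7%, and 1116 lower, 9.93%. The median over all genes was 0.11. Both ages held very different cells, so the called genes mix cell type with age.

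Kitl and Cxcl12, which mark leptin receptor stroma, were among the genes that rose most. The named genes, ranked by the pooled ratio among abundant genes carried by many cells, were Slc26a7, Cyp1b1, Phactr1, Plxnd1, Kitl, Arrdc4, Dhrs3, Cxcl12, Pappa and Apod. All but Dhrs3 and Apod were guide genes of the clusters, so for the other 8 the ratio is not independent of the cluster numbers. Cxcl12 (chromosome 6, 117168535 to 117181367 of GRCm38, plus strand), the chemokine that retains blood stem cells in marrow, ranged over young cells from 0 to 16891 CPM with a median of 28.6. Over old cells it ranged from 7.98 to 68230 CPM with a median of 15506. Most young cells thus sat far below most old cells, with overlap at both ends. The pooled level was 552 CPM (540 to 565) in young and 18595 CPM (18520 to 18671) in old cells, a log2 ratio of 5.07, with 7.19 in range 1 and 3.98 in range 2. A single young cell held 81.3% of the young counts, and with the cell of highest count removed from each age (the top cell) the ratio was 7.28. In old cells of clusters 1 and 2 Cxcl12 was at 34890 CPM, beside 40496 CPM in old and 49800.5 CPM in young sorted MSC-L of the same clusters. The old mOPr of these clusters thus held the chemokine at the scale of the cells the gate was meant to leave out.

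Kitl (chromosome 10, 100015630 to 100100416, plus strand), the growth factor that blood stem cells read through Kit, had a median of 0 CPM over young cells and a highest value of 205 CPM. Over old cells its median was 199 CPM and its highest value 1590.5 CPM. It was carried by 4 of 26 young and 17 of 26 old cells. The groups thus overlapped up to 205 CPM, and all values above that were in old cells. The pooled log2 ratio was 5.29, and 6.28 without the top cell of each age. Slc26a7 (chromosome 4, 14502430 to 14621805, minus strand), an anion exchanger, had 1 count over all young cells and 161 CPM (154 to 169) over old cells, a log2 ratio of 7.25 with a counting interval, without added CPM, of 8.72 to 16.51. It was carried by 12 of the 14 old cells in clusters 1 and 2 and by 13 of all 26 old cells. Cyp1b1, a cytochrome that oxidizes steroids and retinoids, was at 9.05 CPM in young cells, 1 of which carried it, and at 677 CPM in old cells, where 19 of 26 carried it. Its log2 ratio was 6.08, and 8.31 without the top cell of each age. Plxnd1, a semaphorin receptor, rose by 5.55 and Phactr1, a regulator of actin and phosphatase, by 5.77. Arrdc4, an arrestin-like protein, rose by 5.26, and Pappa, a protease that frees insulin-like growth factors, by 5.01. Without the top cells these last values were 6.30 and 7.10.

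Dhrs3 and Apod were the named genes that were not guide genes. Dhrs3 (chromosome 4, 144892827 to 144928209, plus strand) reduces retinaldehyde and so limits retinoic acid. It was carried by 6 of 26 young and 15 of 26 old cells, with a pooled level of 4.94 against 204 CPM and a log2 ratio of 5.11. Apod (chromosome 16, 31296192 to 31314808, minus strand), a secreted lipid carrier of fibroblasts, was at 139.9 CPM in young cells and 4243 CPM in old, a log2 ratio of 4.91. Clusters 1 and 2 held only 1.64% of its old counts. Nearly all of its old counts thus lay in cluster 5.

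The whole MSC-L list moved with these genes. Young cells carried 2 to 12 of its 18 genes, with a median of 5, and old cells 2 to 17, with a median of 12. The summed level was 1832 CPM (1809.7 to 1854) in young and 27625 CPM (27533 to 27717) in old cells. The median log2 ratio of its 18 genes was 3.02, with 17 called higher and none lower, and 14 of the 18 were guide genes. The exception was Foxc1, a transcription factor of these cells, at 0.34. Lepr (chromosome 4, 101717404 to 101815352, plus strand) ranged from 0 to 1529.5 CPM over young cells, median 2.26, and from 0 to 4054 CPM over old cells, median 466. Its pooled ratio was 2.85. All 14 old cells of clusters 1 and 2 carried Lepr, at 1958 CPM, while 3 of the 12 old cells of cluster 5 did. Adipoq, the adiponectin gene, was carried by 12 of 26 old cells at 534 CPM and by 1 young cell that held 99.4% of the young counts. Its ratio was 3.22, and 8.28 without the top cell of each age. Pparg, the master regulator of fat cells, was at 4.12 but was not called without those cells, at 1.98.

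Fat-related genes and growth factors for blood formed lists that overlap with MSC-L. The adipogenic list had a median of 2.76 over 10 genes with 8 called higher, and 1.86 without the guide genes. Apoe, which carries lipid, had a median of 2.64 CPM over young cells and 4270.2 CPM over old cells, and it was carried by 10 of 26 and 22 of 26. Its pooled ratio was 3.77, and 4.85 without the top cells. Cebpb, a transcription factor early in fat formation that was not a guide gene, went from 157 to 480.2 CPM, a ratio of 1.61. The list of factors that support blood cells had a median of 2.03 over 14 genes, with 7 called higher and 1 lower, and 0.58 over its 7 genes that were not guide genes. The gene called lower was Bmp4, a bone morphogenetic protein, at −1.21, and it was not called without the top cells, at −0.95.

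Genes that show peptides to T cells and genes that answer interferon were partly called higher in old cells. Antigen presentation genes had a median of 2.62 over 13 genes, 10 of them called higher, and 2.00 without guide genes. H2-K1, a class I molecule, ranged from 0 to 3935 CPM over young cells, median 166, and from 20.9 to 6736 CPM over old cells, median 2385. The high values overlapped while the middle of the old cells lay far above that of the young. Its log2 ratio was 3.08. B2m, the light chain of class I, was at 405 CPM in young and 1392 CPM in old cells, a ratio of 1.78. Reads of H2 genes can be shared among near-identical genes, so single H2 values are uncertain. Interferon genes had a median of 2.81 over 15 genes with 8 called higher. Among them were Ifit3, an antiviral protein, at 5.34, the antiviral Oasl2 at 5.41 and the immunoproteasome gene Psmb9 at 5.17. Without the top cell of each age Ifit3 had 4.51 and Psmb9 5.88. Oasl2 was carried by 8 of 26 old cells and 0 young cells.

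Inflammatory genes were read from the targets of NF-kB and from chemokines. Targets of NF-kB, the transcription factor of inflammation, had a median of 1.04 over 19 genes with 7 called higher. Young cells carried 2 to 11 of the 20, median 5, and old cells 1 to 17, median 8. Ccl2 (chromosome 11, 82035571 to 82037453, plus strand), which draws monocytes, had 0 counts over all 26 young cells. Over old cells it reached 6828 CPM with a median of 0, and 7 of 26 cells carried it, 5 of them in cluster 5. The pooled old level was 336 CPM (326 to 346), or 209.6 CPM without the top cell. Against the floor of 3 counts over the young group, Ccl2 was at least 10.67 higher in log2. Ccl7, a related chemokine, was at 4.01, and at 7.31 without the top cell of each age. Cxcl10, which draws T cells, was at 5.74, and at 5.06 without them. Il6, the interleukin, was at 1.74, and at 4.05 without them, with 1 young cell holding 99.8% of the young counts and 1 old cell 85.1% of the old. The list of interleukin-1 and inflammasome genes had a median of 2.18 over 11 genes with 6 called higher, among them the caspases Casp1 at 4.39 and Casp4 at 3.63. Without the top cells Casp1 had 5.66 and was not called. Nfkbia, the inhibitor that NF-kB induces, was at −0.59 and was not called.

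**Figure D2:**
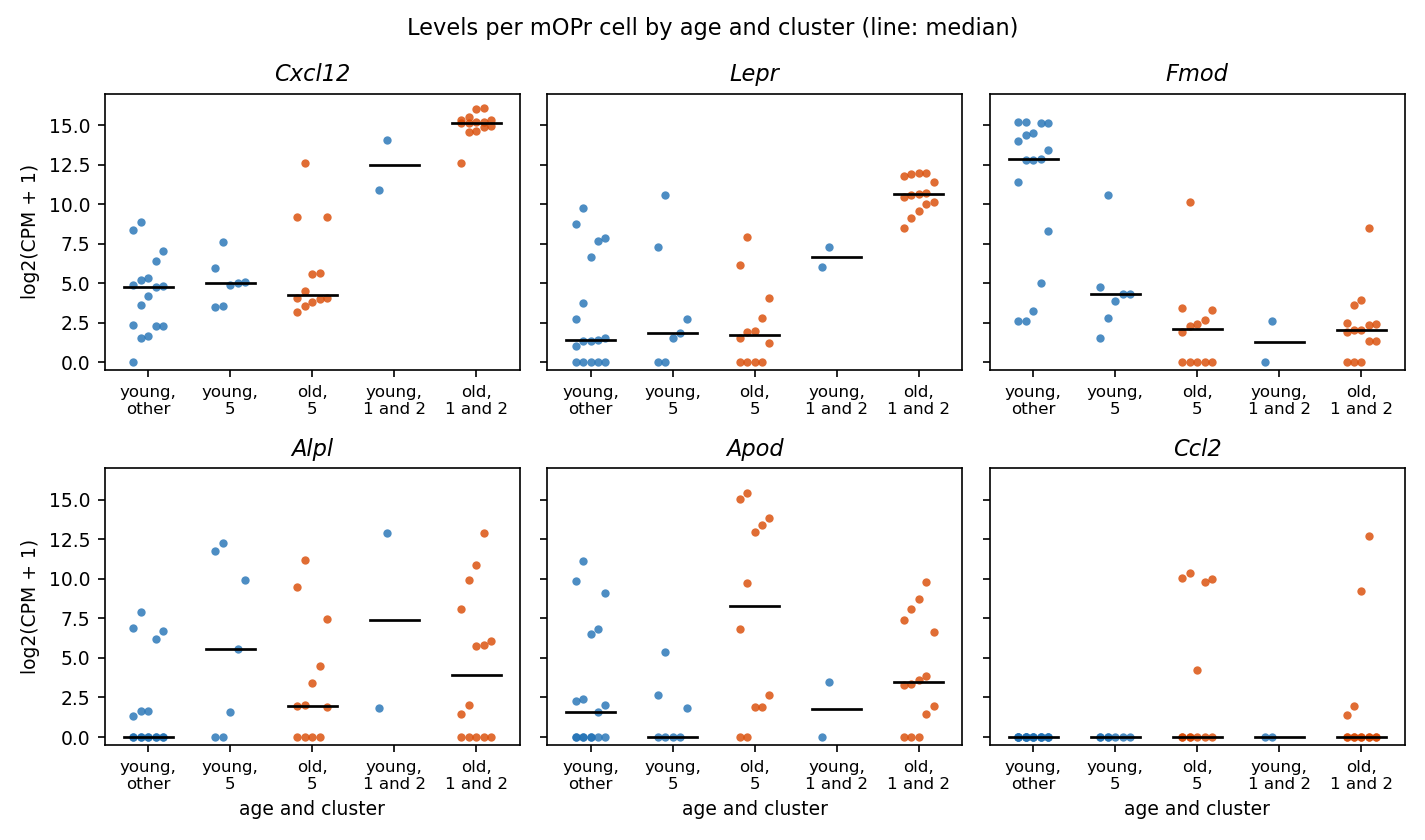
Level in each mOPr cell, as log2 of CPM plus 1 (vertical axis), by age and cluster (horizontal axis), for Cxcl12, Lepr, Fmod, Alpl, Apod and Ccl2, with a point for each cell and a line at the median. Cxcl12 is high in clusters 1 and 2, while 7 of 12 old and 1 of 7 young cells of cluster 5 carry Apod.

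Acan and Fmod of the chondrocyte list were among the genes that fell most. The named genes were Cilp, Cpm, Acan, Fbln7, Sema3e, Fmod, Edil3, Anxa8, Adgrg2 and Dgki, all guide genes but Cpm and Dgki. Cilp (chromosome 9, 65265180 to 65280605, plus strand), a matrix protein of cartilage and tendon, ranged over young cells from 0 to 29536 CPM, median 15.0. Over old cells it ranged from 0 to 11.0 CPM, median 2.36. It was carried by 14 of 26 young cells and 1 of 26 old cells, so the groups overlapped at low values and the high values were in young cells. The pooled level was 4469.6 CPM (4435 to 4504) against 2.56 CPM, a log2 ratio of −10.29, with −9.99 and −10.50 in ranges 1 and 2. Acan (chromosome 7, 79053483 to 79115099, plus strand), the main proteoglycan of cartilage, was carried by 13 of 26 young and 0 of 26 old cells, and its ratio was −7.87. Fmod (chromosome 1, 134037254 to 134048277, plus strand), a proteoglycan that binds collagen fibers, was at 10816 CPM in young cells, 19 of which carried it, and 93.8 CPM in old cells, 4 of which did. The ratio was −6.83, and −8.79 without the top cell of each age. Cpm (chromosome 10, 117629500 to 117687352, plus strand), the carboxypeptidase M gene, was carried by 13 of 26 young cells at 725 CPM and had 0 counts in old cells, which puts its log2 ratio at −11.56 or lower. Edil3, a matrix protein that binds integrins, also had 0 counts in old cells and a ratio of −8.24 or lower. Sema3e, a ligand of the plexin Plxnd1, had −7.15, and −6.34 without the top cells. Fbln7, a fibulin of the matrix, had −7.72, Anxa8, an annexin, −5.93 and −6.51 without the top cells, the adhesion receptor Adgrg2 −5.73, and the lipid kinase Dgki −5.63.

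The chondrocyte list had a median of −3.88 over 17 genes, with 11 called lower and none higher, and 15 of the 17 were guide genes. Young cells carried 1 to 15 of its 20 genes, median 6, and old cells 1 to 5, median 3. Besides Acan and Fmod, Sox9, the transcription factor that starts cartilage, fell by 3.22. Col2a1, the collagen of cartilage, was at 1142 CPM in young cells, 75.3% of it in 1 cell. Its ratio was −7.68, and −5.92 without the top cell of each age, while the difference of medians over cells was 0.25, the other way. Comp, a cartilage and tendon glycoprotein and not a guide gene, was carried by 23 of 26 young and 9 of 26 old cells, with medians of 6528 and 8.34 CPM. Its ratio was −3.88, and −4.88 without the top cells.

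The lists for joint lining, tendon and fibroblasts had medians under 0, with a part of their genes called. The synovial lining list had a median of −2.10 over 8 genes with 4 called lower and 1, Vcam1, an adhesion protein shared with MSC-L, called higher. Prg4, the lubricin of joint surfaces, was carried by 22 of 26 young and 6 of 26 old cells, and 1 old cell held 96.2% of the old counts. Its ratio was −5.37, and −9.42 without the top cell of each age. The tendon list had a median of −1.70 over 7 genes with 3 called lower, among them Scx, the transcription factor of tendon, at −2.59. The fibroblast list had a median of −1.15 over 17 genes, 15 of them guide genes, with 5 called lower and 2 higher. Fn1, the fibronectin gene, was carried by all 26 young cells with a median of 2912 CPM, and by 14 of 26 old cells with a median of 17.1 CPM. Its ratio was −4.37, and −5.08 without the top cells. Cd34 and Cd248, surface glycoproteins of fibroblast progenitors, rose by 2.47 and 3.24.

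Osteoblast genes were called about as often as all genes. The list had a median of 0.10 over 17 genes, with 2 called higher and 2 lower, against 0.11 for all genes, and it had −1.08 in range 1 and 0.12 in range 2. Ibsp, a bone sialoprotein that was a guide gene, rose by 1.71, and Phex, a protease that governs phosphate, by 3.13, which were 2.61 and 5.58 without the top cells. Dmp1, a mineral matrix protein of osteocytes, had 105 young counts and 1 old count and a ratio of −2.92, with a counting interval, without added CPM, of −11.81 to −3.98. It was not called without the top cells, at −2.07. Bglap, the osteocalcin gene whose near copy Bglap2 makes its reads uncertain, had −1.15 and was not called without the top cells, at −1.45. Young cells carried 2 to 16 of the osteoblast markers, median 4.5, and old cells 2 to 15, median 8.5.

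The lists for stress, cell cycle arrest, progenitors and signals were taken last, beside 10.7% of all genes called higher and 9.93% lower in all mOPr. Immediate early genes had a median of 0.18 over 17 genes with none called, and heat shock genes 0.33 over 12 with none called. Fos, the immediate early transcription factor, was at 14610.4 CPM in young and 15407 CPM in old cells. Genes of cell cycle arrest had a median of −0.66 over 7 genes with 1 called lower, Gadd45a, a stress sensor, at −1.02. The arrest gene Cdkn1a was at 502 CPM in young and 629.5 CPM in old cells, and Cdkn2a was not among the genes that passed. The skeletal progenitor list had a median of 0.92 over 12 genes with 2 called higher and 1 lower. In range 1 the medians of the heat shock and skeletal progenitor lists were −1.27 and −0.67, the other way. Wnt, BMP and hedgehog signals had 0.59 over 18 genes with 4 called higher and 3 lower, among them Sfrp4, a secreted Wnt modulator, at 3.04, or 3.73 without the top cells, and Hhip, which binds hedgehog, at −3.22. Outside clusters 1 and 2 that list had −0.65 over 18 genes, with 1 called higher and 4 lower. Of all genes there, 6.3% were called higher and 19.7% lower. Within cluster 5 the list had 0.04 over 10 with 1 called lower, where 14.2% of all genes were called higher and 10.1% lower. It had 0.12 in range 2 outside clusters 1 and 2, and −0.76 in range 1 within cluster 5, each the other way.

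How much of the differences followed the share of clusters was written as an identity. The log2 ratio of each gene is the sum of a term for the share of clusters 1 and 2, a term for clusters other than 5 outside them, and the ratio within cluster 5. It is arithmetic with no test, and the terms of a gene can cancel. For the 1206 genes called higher, the median ratio was 2.35, and the medians of the terms were 0.36 for the share of clusters 1 and 2, −0.01 for the other clusters and 1.82 within cluster 5. The first term rests on 2 young cells, and it was 0.13 with young cells of clusters 1 and 2 from every sorted population. The term within cluster 5 was the largest for 710 of them, 58.9%, the share of clusters 1 and 2 for 369, 30.6%, and the other clusters for 127, 10.5%. Only 599 of the 1206 passed the count filter within cluster 5, so for many genes that term rests on few counts. For the 1116 genes called lower, the median ratio was −2.54, and the medians of the terms were −0.01, −0.64 and −1.79. The term within cluster 5 was the largest for 669 of them, 59.9%, and the other clusters for 414, 37.1%, and 448 of the 1116 passed within cluster 5. How often each term was the largest over all genes that passed is not given here, so the shares of largest terms have no background. The term within cluster 5 also rests on only 12 old and 7 young cells. These shares therefore do not show that most of the difference between the ages lay within cluster 5.

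The lists differed in where their ratio lay. These medians take every gene that passed in all mOPr, including genes with too few counts to pass within cluster 5, so they differ from the medians given for cluster 5 alone. For MSC-L genes the median of the term for clusters 1 and 2 was 3.38, and within cluster 5 it was −0.08. For chondrocyte genes the term of the other clusters was −3.79, and within cluster 5 it was −0.64. Most genes of both lists were guide genes from which the clusters were made, so a large share of their ratio falls in the cluster terms by construction. NF-kB genes had −0.00 for clusters 1 and 2 and 0.81 within cluster 5. Adipogenic genes had 0.62 and 1.44, interferon genes 0.34 and 1.14, and antigen presentation genes 0.38 and 0.79. The term of the other clusters was 0.10 for NF-kB, 0.08 for adipogenic, 0.00 for interferon and 0.62 for antigen presentation genes. Osteoblast genes, with a median ratio of 0.10, had −0.44 for clusters 1 and 2, 1.38 for the other clusters and −1.34 within cluster 5. Over all genes that passed, the medians were 0.06 for clusters 1 and 2, −0.21 for the other clusters and 0.10 within cluster 5.

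Where the counts were held gave a further view of the mix. Clusters 1 and 2 held 52.7% of all old counts. Of the 1206 genes called higher, 322, or 26.7%, had at least 90% of their old counts in those clusters, against 17.99% of all genes that passed. Of the 1116 genes called lower, 327, or 29.3%, had at least 90% of their young counts in young cells outside clusters 1, 2 and 5, against 21.1% of all genes. Complement genes, with a median of 1.99 over 9 genes in all mOPr, 6 called higher and 1 lower, held examples of the former. C3, the central complement protein, rose by 3.99 with 94.7% of its old counts in clusters 1 and 2, and C4b rose by 4.48 with 98.6%. Without the top cell of each age their ratios were 5.15 and 5.90.

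Cells outside clusters 1 and 2 were then compared on their own. This sets 12 old cells, all of cluster 5, against 24 young cells of cluster 5 and other clusters. The old and young cells are among those of the comparison of all mOPr, so values are set side by side and no test links them. Of 9798 genes that passed, 617 were called higher in old cells, 6.3%, and 1935 lower, 19.7%, with a median of −0.18. Of the 1206 genes called higher in all mOPr, 826 passed here, and 372 of those were called higher and 29 lower. Of the 1116 called lower, 1034 passed, and 775 of those were called lower and 0 higher. Within cluster 5, described next, 599 of the former passed, with 279 called higher and 12 lower, and 448 of the latter, with 163 called lower and 9 higher. All these comparisons share cells.

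MSC-L genes are to a large part the guide genes of clusters 1 and 2, so leaving those cells out lowers them by construction. The MSC-L list had a median of −0.37 over 12 genes, 9 of them guide genes, with 1 called higher and 3 lower. Its median was −1.02 in range 1 and 0.32, the other way, in range 2. Lepr had a ratio of −2.11, Ebf3, a transcription factor of these cells, −2.67 and Foxc1 −1.21, while Lpl, the lipoprotein lipase, had 3.05. Without the top cell of each age Lepr and Foxc1 were not called, at −2.58 and −0.99, and Lpl was at 5.82. Cxcl12 had 2.89 and was not called, and since 1 old cell held 78.6% of the counts, it had 1.27 and was called without the top cells. The list of blood-supporting factors had a median of 0.50 over 11 genes with 1 called higher and 1 lower, but −0.47 in range 2.

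The cartilage and joint lists were read next outside clusters 1 and 2, where 19.7% of all genes were called lower. The chondrocyte list had a median of −3.01 over 17 genes with 9 called lower, and −3.01 also with its genes of 0 counts at the floor. The synovial list had −2.84 over 6 genes with 3 called lower, and −2.89 at the floor. The tendon list had −0.71 over 6 genes with 2 called lower, and the fibroblast list −0.23 over 16 with 3 called higher and 4 lower. Osteoblast genes had −0.22 over 16 with 1 called in each direction, and skeletal progenitor genes −0.82 over 12 with 1 called lower. In range 2 the osteoblast and skeletal progenitor lists had 0.23 and 0.42, the other way.

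Apod, Dhrs3, Cyp1b1 and Gpc3 were called higher outside clusters 1 and 2, where 6.3% of all genes were called higher and 19.7% lower. Apod had a ratio of 5.90, Dhrs3 5.18, Cyp1b1 5.70 and Gpc3, a glypican that binds growth factors, 7.04. The adipogenic list had 1.89 over 7 genes with 4 called higher, and the complement list 1.11 over 7 with 1 called lower. NF-kB genes had 0.56 over 18 with 5 called higher and 1 lower, but −0.04 in range 2, and Ccl2 was at least 10.76 higher. Interferon genes had 2.16 over 11, with 4 called higher and 2 lower, but −0.55 in range 2. Antigen presentation genes had 1.36 over 11, with 1 called in each direction. Interleukin-1 and inflammasome genes had −0.02 over 8 with 3 called higher. Arhgdib, a blood marker, had 0 counts in old cells and was called lower, at −6.51 with 1 CPM added. Esam, an endothelial adhesion gene, was called higher at 4.43. Without the top cells it was not called, at 1.73, since 1 cell held 93.2% of its old counts. Immediate early genes had 0.49 over 17 with 1 called higher, heat shock genes 0.17 with none, and cell cycle arrest genes −0.94 over 7 with 1 called lower. In range 1 the heat shock list had −0.66, the other way.

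**Figure D3:**
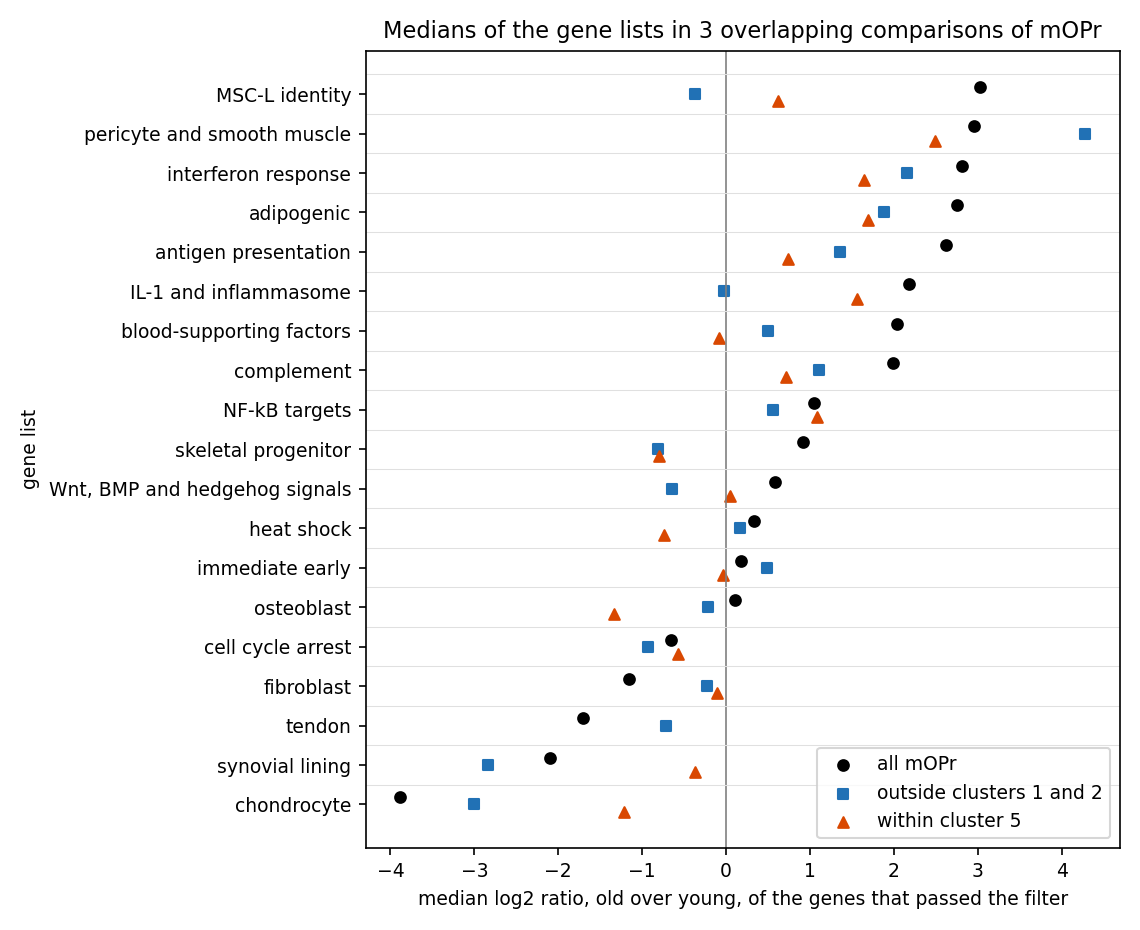
Median log2 ratio of old over young (horizontal axis) for each gene list (vertical axis) in all mOPr, outside clusters 1 and 2, and within cluster 5, which share cells. The MSC-L list has 3.02, −0.37 and 0.62 in these comparisons, and the chondrocyte list −3.88, −3.01 and −1.22.

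Cluster 5 alone held cells of both ages in number, so the cluster could be fixed there. Its 12 old cells had 327301 to 842191 counts, median 424692, and its 7 young cells 367500 to 830204 counts, median 511471. Osteoblast and fibroblast characters meet in this cluster, as the marker lists showed. Of 6614 genes that passed, 940 were called higher in old cells, 14.2%, and 665 lower, 10.1%, with a median of 0.16. Both groups are small, and the labels do not tie their cells to the mice.

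The named genes that rose within cluster 5 were Apod, Trib1, Epb4.1l1, Osr2, Steap4, Sned1, Entpd2, Gpc3, Stard9 and Vit, of which Osr2 and Steap4 were guide genes. Apod ranged over the 7 young cells from 0 to 41.1 CPM with a median of 0. Over the 12 old cells it ranged from 0 to 43346 CPM with a median of 485. It was carried by 1 of 7 young and 7 of 12 old cells, so low values overlapped and high values were in old cells. The pooled level was 7.57 CPM in young and 8815 CPM (8739 to 8891) in old cells, a ratio of 10.01, with 12.76 and 7.83 in ranges 1 and 2, and 11.45 without the top cell of each age. Gpc3 (chromosome X, 52272426 to 52613950, minus strand) was carried by 1 of 7 young and 6 of 12 old cells, at 14.9 and 993 CPM. Its ratio was 5.97, and 9.30 without the top cells. Entpd2, an enzyme that splits ATP outside the cell, had 6.06, and 7.50 without the top cells. Without those cells the young level of both genes was 0 CPM, so 9.30 and 7.50 rest on the 1 CPM added. Steap4, which reduces iron and copper, had 1 young count, a ratio of 7.64 and a counting interval, without added CPM, of 7.35 to 15.13. Stard9, a kinesin-like motor, had 5.43, and 6.16 without the top cells.

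The young cells of other clusters were set beside old cells of cluster 5 for these genes. Trib1, a pseudokinase that marks proteins for breakdown, had 1 count in young cells of cluster 5 and 444 CPM in old ones, a ratio of 8.44 with an interval of 8.15 to 15.93. Young cells of clusters other than 1, 2 and 5 had 126 CPM of it. Osr2, a transcription factor of joint and limb, and Epb4.1l1, a membrane skeleton protein, had 0 counts in young cells of cluster 5. In log2 they were at least 7.95 and 8.27 higher in old cells, while the other young clusters held 141 and 131 CPM. Without the top cell Osr2, at 7.13, was not called. Sned1, a matrix protein, had 6.18, and Vit, the matrix protein vitrin, 5.16, or 7.40 without the top cells. Both were at 486 and 493 CPM in the other young clusters, above the 234 and 286 CPM of old cells of cluster 5. Outside clusters 1 and 2 the ratios of Trib1, Osr2, Epb4.1l1, Sned1 and Vit were 2.23, 0.98, 1.40, −0.63 and −0.36, and none was called. Apod, Gpc3, Entpd2, Steap4, Stard9 and Dhrs3 were called both within cluster 5 and outside clusters 1 and 2.

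Among the named genes that fell within cluster 5 were Fat3, Ap3d1, Rab10, Tpm4, Fbln1, Ncam1, Glt8d1, Tmem176a and Itgbl1, with the last pair guide genes. Fat3 (chromosome 9, 15910189 to 16501285, minus strand), a large cadherin, ranged over young cells from 0 to 1393 CPM with a median of 519.7, and over old cells from 0 to 71.8 CPM with a median of 0. It was carried by 4 of 7 young and 2 of 12 old cells, and the values of those young cells lay above all old ones. Its ratio was −5.56, with −5.07 and −5.98 in the ranges, but without the top cell of each age it was −6.21 and was not called. Ap3d1 and Rab10, both of vesicle traffic, had −3.82 and −3.74, and the actin-binding tropomyosin Tpm4 −3.67. Fbln1, a matrix fibulin, had −3.41, and −6.20 without the top cells, where Rab10 had −4.70. The adhesion gene Ncam1 had −3.27, the glycosyltransferase gene Glt8d1 −3.18, the membrane protein gene Tmem176a −3.07, and Itgbl1, an integrin-like secreted protein, −3.05. Without the top cells these were −3.90, −4.11, −6.28 and −5.19.

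A part of the osteoblast list was called lower in old cells of cluster 5. The list had a median of −1.34 over 15 genes, with 8 called lower and none higher, and −3.19 and −1.03 in ranges 1 and 2. Alpl, the alkaline phosphatase of mineralizing cells, was carried by 4 of 7 young and 4 of 12 old cells, at 1046 and 209.6 CPM. Its ratio was −2.31, and −3.21 without the top cell of each age. Spp1, osteopontin, fell by 2.00. Bglap had −2.16, Sp7, a transcription factor that bone formation needs, −1.81, and Col1a1, the chief collagen of bone, −1.01. Without the top cells none of these 4 was called, and the values were −2.48, −2.87, −4.74 and 0.70, so the direction of Col1a1 rested on single cells. Ibsp had 1.61 and was not called.

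Cells of cluster 5 were divided by the number of osteoblast markers they carried. Young cells carried 4 to 16 of the 18 osteoblast markers, median 14, and 4 of 7 carried at least 9. Old cells carried 2 to 15, median 4, and 4 of 12 carried at least 9. The division at 9 markers was chosen after the values were seen. Among cells with at least 9, Alpl was at 2272 CPM in 4 young and 850.0 CPM in 4 old cells, Bglap at 5875 and 2452 CPM, and Col1a1 at 34454 and 34092 CPM. Fat3 was carried by 4 of these 4 young cells at 1057 CPM and by 1 of the 4 old cells, with a pooled level of 13.1 CPM. Alpl, Bglap and Col1a1 are among the markers that set the division, so their values in these cells were in part fixed by it.

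The cells of cluster 5 with fewer osteoblast markers held nearly all Apod of the old cells, and since Apod was chosen in these same cells its values here restate that choice. Apod was at 11668 CPM in 8 old cells, 7 of which carried it, and at 12.5 CPM in 3 young cells. Gpc3 was carried by 6 of these 8 old cells and was at 0 CPM in the 3 young cells. Cd34 was carried by 7 of the 8 old cells, at 599 CPM, against 50.4 CPM in the young. Of the 3 young cells, Young_mOPr 6 had 190 CPM of Cd34, and Young_mOPr 22 and 26 had 0 CPM. Young_mOPr 6 also had 3773 CPM of the chemokine gene Cxcl1 and 2563 CPM of the chemokine gene Ccl11, but 0 CPM of Apod and Gpc3. Dcn, decorin, which marks fibroblasts, was at 26195 CPM in young cells and 37148 CPM in old, so both groups held fibroblast-like cells. The 10 named genes that rose within cluster 5 were chosen for being high in these old and low in these young cells, so counts of them per cell restate that choice. Of the 10, 6 of the 12 old cells carried at least 7, and each of the 7 young cells carried 1 at most. Young cells of clusters other than 1, 2 and 5 carried 2 to 6 of them.

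Other lists within cluster 5 gave smaller numbers of called genes, where 14.2% of all genes were called higher and 10.1% lower. NF-kB genes had a median of 1.08 over 16 genes with 6 called higher and none lower, and 1.21 and 3.39 in ranges 1 and 2. Ccl2 was carried by 5 of 12 old cells and was at least 8.80 higher, at 282 CPM in old cells without the top cell. Nfkb2, a subunit of NF-kB, had 4.22, and Myd88, the adaptor of interleukin-1 and Toll-like receptors, 4.89, carried by 7 of 12 old and 1 of 7 young cells. Without the top cell of each age they had 5.74 and 6.93. Nfkb2 was not called outside clusters 1 and 2, at 0.24, nor in all mOPr, at 0.78. Myd88 was called higher in both, at 2.81 and 2.21. Cxcl1, a neutrophil chemokine and guide gene, had 1.15, and 8.22 without the top cells. Il33, an alarmin cytokine, had 0 young counts and was at least 6.56 higher, carried by 4 of 12 old cells. With 1 CPM added its ratio was 6.33, and 5.66 without the top cell. The interleukin-1 and inflammasome list had 1.56 over 6 genes with 3 called higher and 1 lower. The adipogenic list had 1.69 over 5 with 3 called higher, Apoe at 2.93, Cebpb at 1.69 and Cebpa, another factor of fat formation, at 2.96. Without the top cells these had 8.21, 2.48 and 4.93. Outside clusters 1 and 2 Apoe was called higher at 3.98, while Cebpb at 1.08 and Cebpa at 1.58 were not called.

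The counts of called genes that follow stand beside 14.2% of all genes called higher and 10.1% called lower within cluster 5. With so few genes a list, a count of 1 to 3 called is near those shares for several lists. Interferon genes had 1.65 over 6 genes within cluster 5 with 1 called higher, antigen presentation genes 0.74 over 10 with none called, and complement genes 0.71 over 5 with none called. H2-K1 had 0.99 and B2m 0.66. MSC-L genes had 0.62 over 9 with 1 called higher, blood-supporting factors −0.08 over 10 with 1 in each direction, and skeletal progenitor genes −0.80 over 10 with 1 higher and 2 lower. Pdgfra was the one called higher, at 1.79, while Itgav, the other gene of the sort, was called lower at −2.52 but not without the top cells, at −2.37. Chondrocyte genes had −1.22 over 12 with 1 called higher and 3 lower, synovial genes −0.37 over 5 with 2 higher and 1 lower, and fibroblast genes −0.11 over 13 with 2 in each direction. In ranges 1 and 2 the synovial list had 3.53 and 1.19 and the fibroblast list 0.18 and 0.35, opposite to the pooled medians. Blood-supporting factors, at 0.84 and 0.08, were opposite as well. So were complement at −0.72 and antigen presentation at −0.03 in range 1, and skeletal progenitor genes at 0.28 in range 2. Immediate early genes had −0.03 over 17 with 3 called higher, but 0.77 in range 1. Heat shock genes had −0.74 with 1 in each direction. Cell cycle arrest genes had −0.58 over 7, but 0.90 in range 2. Of these Cdkn1a, which halts the cell cycle, rose by 2.25 from 228 to 1085 CPM and was carried by 11 of 12 old cells, while Gadd45a and Trp53, which encodes p53, were called lower at −1.96 and −1.70. Neither was called without the top cells, at −1.80 and −1.77. Young cells of clusters other than 1, 2 and 5 had 620 CPM of Cdkn1a. Its ratio was 1.06 outside clusters 1 and 2 and 0.33 in all mOPr, and it was not called in either. Pcna was called higher within cluster 5 at 1.56, and at 1.66 without the top cells. It was not called in all mOPr, nor outside clusters 1 and 2, at 0.58.

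Muscle-like markers in old cells came largely from 1 cell. The list of pericyte and smooth muscle genes had a median of 2.96 over 8 genes in all mOPr, with 2 called higher and 1 lower, but −0.90 in range 1 and 5.72 in range 2. Old cells carried 0 to 7 of its 10 genes, median 1, and young cells 0 to 3, median 1. The summed level was 2533 CPM (2505 to 2561) in old cells, most of it Acta2, smooth muscle actin, at 1146 CPM, and 545 CPM in young cells, most of it Cspg4 at 346 CPM. The old cell with 7 of the markers, Old_mOPr 21, was in cluster 5 and had 19099.7 CPM of Acta2. Without the top cell of each age Acta2 had −3.53 in place of 3.58. Outside clusters 1 and 2 the list had 4.28 over 5 genes, and within cluster 5 2.49 over 5, with none called in either. Des, an intermediate filament gene of muscle, was called higher in all mOPr at 3.90, or 5.99 without the top cells, and the skeletal muscle list, in which it was on top, summed to 152 CPM in old and 10.6 CPM in young cells. What kind of cell Old_mOPr 21 was, was not tested.

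Cells sorted as OPr, which lack PDGFRα, offered the same cluster in other cells that may come from the same mice. Of 15 old OPr cells in cluster 5, 8 carried at least 7 hematopoietic markers and were left out, which left 7 old and 14 young cells, with 2 of each in range 1. Of 6100 genes that passed, 601 were called higher in old cells, 9.85%, and 864 lower, 14.2%, with a median of 0.19. Osteoblast genes had a median of −2.86, chondrocyte genes −6.86, or −7.16 with genes of 0 counts at the floor, and fibroblast genes −4.71. NF-kB genes had 3.53 and antigen presentation genes 1.16, but −0.34 and −0.92 in range 1. Markers of other cells were also high in old OPr. An old cell carried up to 8 of 8 erythroid markers, and these summed to 1815 CPM in old and 0.161 CPM in young cells, with Slc4a1, an anion exchanger of red cells, on top. Cell cycle genes summed to 1287 against 57.1 CPM, with Mki67 on top, and up to 10 of 10 were carried by an old cell. Pericyte and smooth muscle genes summed to 13229 against 244 CPM, with Acta2 on top in old cells, and skeletal muscle genes to 1288 against 6.61 CPM, with Des on top. The largest mitochondrial share was 13.1% in an old and 12.9% in a young cell. How far such cells set the ratios was not tested. Fat3 was called lower at −5.07 and Dhrs3 higher at 3.83, as among mOPr of cluster 5. Col1a1 had −4.01 and Bglap −7.90, both called lower. Apod had 0 counts in old OPr cells, Sned1 was called lower at −5.96, and Ap3d1 was called higher at 2.70. Ccl2 had 0 counts at each age. Whether the difference of old from young varied between mOPr and OPr was not tested.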

How the data were processed

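Single cells of mouse bone marrow stroma were sequenced in plates, and the authors deposited raw read counts per gene and cell, made with GSNAP on GRCm38 and counted by HTSeq without regard to strand. The table has 46078 gene entries and 661 cells. Entries of 270 repeated symbols were summed, which left 45771 nuclear and 37 mitochondrial genes. Groups were read from the labels and clusters from the authors' ICGS table of cells that are not endothelial; 492 of its 496 guide genes were matched. Levels are summed counts scaled to CPM by the total of nuclear genes. Every comparison was descriptive, since each age is 1 sample, so no test was run. The counts needed to pass, the fold and the library ranges are given with the first comparison.

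Named genes were the 10 with the largest called change in each direction for all mOPr and within cluster 5, with at least 1000 counts, at least 10 CPM in at least 50% of the cells of the higher age, and no cell holding over 50% of the counts of that age, besides the sort genes and members of 28 lists. The cells compared and the lists were chosen with earlier results of these data known. Medians are given for lists with at least 5 genes that passed. Coordinates are from GENCODE for GRCm38. A set of simulated counts was used to check the calculations. Alternatives were other scalings, cells thinned to 100000 counts, another pseudocount of 0.1 CPM, no filter, each library range alone, differences of medians over cells, and leaving out cells. Calculations ran in Python 3.11.15 with scipy 1.17.1, pandas 2.3.3 and numpy 2.4.6, and plots were drawn by matplotlib 3.10.9.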

Additional observations from a re-analysis of the deposited data

How the results depend on the processing

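No paired analysis was possible because the replicate numbers in the labels only name single cells. The 56 list medians varied here are those of mOPr, without sorted OPr. Of these, 14 had the other sign in range 1 alone, 12 in range 2 alone, 6 with the mean of CPM over cells and 4 without the filter. In each of median-of-ratios scaling, thinned cells and removal of the cell with pericyte markers, 5 did. None of the 56 did with another pseudocount or with mitochondrial genes in the total. Leaving out cells with at least 7 hematopoietic or 6 endothelial markers removed no mOPr cell, so it tested nothing. Among 334 values of named genes, 329 kept their direction with the mean of CPM over cells, 327 with median-of-ratios scaling, 296 in range 1 alone, 313 in range 2 alone, 300 by differences of medians over cells and 323 without the top cell of each age. With the mean of CPM, 1052 of the 1206 genes called higher in all mOPr and 1038 of the 1116 called lower were still called. These numbers were 978 and 1050 with median-of-ratios scaling and 1003 and 964 with thinned cells. They were 852 and 761 in range 1 alone, and 837 and 707 in range 2 alone.

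Counts of called genes changed by more than 1.5 times under some settings. In range 1 alone, where a call needs a single range, 1974 genes were higher and 2284 lower in all mOPr, and 1268 were higher and 2926 lower outside clusters 1 and 2. In range 2 alone, 2650 were higher and 1988 lower in all mOPr, 1892 higher outside clusters 1 and 2, and 1479 higher within cluster 5. Without the filter on low counts, 1546 were higher and 1162 lower within cluster 5. With young cells of every population in clusters 1 and 2, the term for the share of those clusters among genes called higher was 0.13 in place of 0.36. With the hematopoietic cells kept, an alternative added after the data were seen, 1293 genes were higher in OPr of cluster 5.

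In sorted OPr of cluster 5, range 1 alone gave −0.34 for NF-kB, −0.92 for antigen presentation and −0.04 for adipogenic genes. These lists had 3.53, 1.16 and 1.34 over both ranges. Among list medians of mOPr of at least 1 in size and called genes of mOPr, these changed direction. In range 1 alone, the pericyte list had −0.90 in all mOPr, −2.30 outside clusters 1 and 2 and −0.67 within cluster 5. Without the cell with pericyte markers, also added after the data were seen, it had −0.77 outside clusters 1 and 2. In range 2 alone, the interferon list had −0.55 outside clusters 1 and 2. By differences of medians over cells, Col2a1 had 0.25 in all mOPr and 0.27 outside clusters 1 and 2, and Lepr had 0.18 there. Col1a1 within cluster 5 had 0.70 without the top cells. Among smaller medians, range 1 alone gave −1.08 for osteoblast, −1.27 for heat shock and −0.67 for skeletal progenitor genes in all mOPr, and synovial genes within cluster 5 had 3.53 and 1.19 in ranges 1 and 2. Of genes not called, Acta2 in all mOPr had −3.53 without the top cells, and others turned as well. Outside clusters 1 and 2 Acta2 went from 4.58 to −3.25 and C3 from 2.35 to −2.18. Within cluster 5 Acta2 went from 2.64 to −5.26, Sox9 from −0.44 to 4.20, Chad from −4.23 to 2.51 and Anxa8 from −2.92 to 2.73. For all of these the cause was not tested.

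Scaling moved the median of all genes by −0.13 with median-of-ratios in all mOPr, and within cluster 5 by −0.13 with the mean of CPM, −0.12 with median-of-ratios and −0.11 with thinned cells. Depth limits genes with few counts, and with 7 and 12 cells in cluster 5 a single cell can decide a value.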
